A study of Mus musculus with 44 samples.

Results

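The genes followed here are 10 genes of insulin signalling, FoxO transcription factors and fuel sensing: the receptors Insr and Igf1r, the docking proteins Irs1 and Irs2, the transcription factors Foxo1 and Foxo3, the lipase gene Pnpla2, the alpha-arrestin genes Txnip and Arrdc4, and the mTORC1 inhibitor gene Ddit4. They are 10 of the 27179 genes counted in each library, matched by symbol to Entrez gene identifiers, and all 10 had reads in every library (609 to 9740 counts). The list was picked from earlier results of these same counts, and which contrast picked each gene is not recorded. The fold changes and adjusted p-values below therefore place each gene among all genes tested and describe these libraries. They are not an independent test of the list.

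Bulk RNAseq was carried out on the dorsal hippocampus of wild-type (WT) mice and of mice homozygous for the constitutive Kdm5bDARID allele, which lacks exons 2 to 4 and therefore the ARID domain and part of the JmjN domain of this H3K4me3 demethylase. All mice were on a mixed C57BL/6J and 129S2/Sv F2 background, were 7 to 8 weeks old, and were culled either naive from the home cage (0 h) or 1 h or 3 h after contextual fear conditioning (CFC), a training session that pairs a new chamber with footshock. Each of the 6 groups of genotype and time holds 6 libraries, 3 labelled male and 3 labelled female, with 40274435 to 107000233 counts per library. The comparison between genotypes at each time asks what the mutant allele changes, and the comparison with 0 h asks what training changes. The study crossed mutant males on C57BL/6J with 129S2/Sv females and bred both genotypes from their offspring. Strain alleles near Kdm5b therefore tend to go with the genotype, and their effects cannot be told apart from those of the mutant allele. How near the genes named below lie to Kdm5b was not examined. Per the study, the total KDM5B protein detected in the mutant was apparently reduced, which limits how far a genotype difference can be ascribed to demethylase activity alone. In bulk tissue, fewer cells of a type and less RNA per cell cannot be told apart.

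The 6 fixed hippocampal neuron markers were detected in all 36 libraries and together made up 3450 to 4535 CPM (the count of a gene relative to the TMM-scaled total of its library). Kdm5b itself was counted at 79.6 to 97.1 CPM in WT libraries and at 75.6 to 93.6 CPM in mutant libraries. The lowest WT and the highest mutant value are those of the 2 libraries described next, without which the ranges are 81.5 to 97.1 and 75.6 to 90.6 CPM. Its gene-level count covers exons outside the deletion and so does not check the genotype. Xist and 4 Y-linked genes went against the labelled sex in 2 libraries, WT 1 h male 1 and mutant 3 h female 2. In WT 1 h male 1, Asic4, a gene that differs between the genotypes, was at 16.8 CPM against 2.41 to 4.77 CPM in the other WT 1 h libraries. In mutant 3 h female 2, Asic4 was at 3.74 CPM against 7.98 to 16.4 CPM in the other mutant 3 h libraries. Fos, a gene induced by neuronal activity that was looked up only after its values had been seen, was at 11.7 CPM in WT 1 h male 1 (19.2 to 34.4 CPM in the others of its group) and at 43.9 CPM in mutant 3 h female 2 (6.42 to 11.6 CPM in the others of its group). On Asic4 and Fos, each of these libraries was thus nearer to the other's group than to its own. The sex transcripts go against the labels but cannot tell the groups apart, since each group holds both sexes. C1ql2, another gene that differs between the genotypes, went the same way in both (64.4 CPM in WT 1 h male 1 against 38.8 to 46.0 CPM in the rest of its group, and 28.3 CPM in mutant 3 h female 2 against 52.5 to 112 CPM). Qsox1 in WT 1 h male 1 (24.3 CPM) lay within the rest of its own group (22.1 to 24.6 CPM) and above the rest of mutant 3 h (18.3 to 22.1 CPM), but in mutant 3 h female 2 it was at 25.9 CPM, outside the rest of its own group. Utp14b in WT 1 h male 1 (9.27 CPM) lay within both groups, and in mutant 3 h female 2 (8.70 CPM) it lay just below the rest of its own group (8.94 to 10.4 CPM) and within the rest of WT 1 h (6.53 to 9.85 CPM). Whether the samples were exchanged cannot be told from the labels. Both keep their labels here, so the WT 1 h and mutant 3 h values of each gene include a library whose group is in doubt, and values without them are given where they change a call or move a fold change of over 0.1 on the log2 scale by more than 1.5 times.

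Insulin and insulin-like growth factor 1 bind the receptor tyrosine kinases encoded by Insr and Igf1r, which phosphorylate the docking proteins IRS1 and IRS2 and so activate PI3K and Akt. Akt phosphorylates the FoxO factors and keeps them out of the nucleus. When insulin signalling is low, nuclear FoxO proteins switch on genes of the fasted state, among them Irs2 and Pnpla2. Txnip and Arrdc4 respond to glucose through the transcription factor MondoA and its partner Mlx, and TXNIP in turn limits glucose uptake. Ddit4 encodes REDD1, which restrains the growth kinase complex mTORC1 and is inducible by glucocorticoids. In the hippocampus, insulin and IGF receptors are found on neurons and have been linked to synaptic plasticity and memory.

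The genes lie on 5 chromosomes of the mouse genome (RefSeq annotation of GRCm38.p6, the build also called mm10). Irs1 is at chr1:82233105-82291439 (minus strand) and Irs2 at chr8:10984681-11008929 (minus strand). Insr is at chr8:3150922-3279649 (minus strand) and Igf1r at chr7:67952257-68233668 (plus strand). Foxo1 is at chr3:52268337-52350109 (plus strand) and Foxo3 at chr10:42181845-42276695 (minus strand). Pnpla2 is at chr7:141455188-141460743 (plus strand), Txnip at chr3:96557957-96561857 (plus strand), Arrdc4 at chr7:68736994-68749238 (minus strand) and Ddit4 at chr10:59949675-59951770 (minus strand). The antisense transcript Gm15441 overlaps exons of Txnip and 9530052E02Rik overlaps those of Irs2. They were counted at 0.067 and 0.495 CPM on average, and whether the counting used strand is not given in the sources used here.

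The promoters of 9 of the 10 genes were taken from the RefSeq promoter set of GRCm38.p6, each running from 250 bases before to 50 bases after the start of transcription. They were searched on both strands for the FoxO site TGTTTAC, the E-box CACGTG (the core of the element bound by MondoA and Mlx), the cyclic AMP response element TGACGTCA, 2 E-boxes 5 bases apart, and the full palindromic glucocorticoid element (AGAACA and its reverse complement 3 bases apart). Irs1, Irs2 and Arrdc4 each hold 1 exact E-box, at positions -115, -44 and -193 from the start site, and 7.15% of all 32851 promoters of this length hold at least 1. Txnip holds 1 FoxO site, which reads GTAAACA on the strand shown and begins at position -121, and 3.65% of all promoters hold one. No exact match to the cyclic AMP response element (1.79% of promoters) or to the glucocorticoid element (0.00913% of promoters) was found in the 9 windows. The exact pair of E-boxes is in 0 of all promoters, so that its absence here says nothing about the members. Pairs with mismatches were not searched, so a promoter without an exact E-box may still hold such a pair. The Txnip promoter below reads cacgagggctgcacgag, where 2 copies of cacgag, each 1 base off the E-box, lie 5 bases apart. The share of all promoters with such a pair was not counted. The promoters of the Irs pair and of the alpha-arrestin pair are shown because the members of these pairs are compared below. The sequences run 5′ to 3′ on the strand of the gene, with the E-box or FoxO site in capitals, from chr1:82291390-82291689 (Irs1), chr8:11008880-11009179 (Irs2), chr7:68749189-68749488 (Arrdc4) and chr3:96557707-96558006 (Txnip).
Irs1: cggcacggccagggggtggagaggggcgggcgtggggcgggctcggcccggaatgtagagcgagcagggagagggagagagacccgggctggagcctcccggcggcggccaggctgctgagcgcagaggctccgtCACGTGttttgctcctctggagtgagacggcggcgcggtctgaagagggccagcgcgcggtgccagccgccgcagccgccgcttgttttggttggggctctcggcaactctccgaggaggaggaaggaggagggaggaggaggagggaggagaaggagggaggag
Irs2: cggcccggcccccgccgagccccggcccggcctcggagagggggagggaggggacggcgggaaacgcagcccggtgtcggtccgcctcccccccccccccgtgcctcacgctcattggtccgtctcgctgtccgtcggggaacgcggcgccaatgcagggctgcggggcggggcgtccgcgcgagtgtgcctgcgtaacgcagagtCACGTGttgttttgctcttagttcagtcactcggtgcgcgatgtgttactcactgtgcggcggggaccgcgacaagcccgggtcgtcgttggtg
Arrdc4: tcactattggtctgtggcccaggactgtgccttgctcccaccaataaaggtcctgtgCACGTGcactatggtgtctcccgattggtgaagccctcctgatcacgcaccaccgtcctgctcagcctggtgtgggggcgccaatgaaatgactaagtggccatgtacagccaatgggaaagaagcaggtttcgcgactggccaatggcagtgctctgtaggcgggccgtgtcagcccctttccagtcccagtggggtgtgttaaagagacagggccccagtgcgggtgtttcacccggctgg
Txnip: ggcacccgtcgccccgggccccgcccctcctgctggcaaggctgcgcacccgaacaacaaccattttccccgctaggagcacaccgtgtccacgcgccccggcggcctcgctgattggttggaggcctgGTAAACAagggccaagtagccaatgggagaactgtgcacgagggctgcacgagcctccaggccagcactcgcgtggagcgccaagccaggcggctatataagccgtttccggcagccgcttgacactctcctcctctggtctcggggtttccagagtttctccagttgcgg

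Per kilobase of exon, Ddit4 was the most abundant of the 10 genes at 39.1 ± 9.80 CPM per kilobase (mean ± SD over 36 libraries) and lay above the next gene, Irs2 (10.6 ± 1.80), in 36 of 36 libraries. Irs2 was in turn above Pnpla2 (6.42 ± 1.31) in 36 of 36 libraries. Pnpla2, Txnip (6.09 ± 1.63) and Foxo1 (6.08 ± 0.660) could not be ordered, since Pnpla2 was above Txnip in 20 libraries and Txnip above Foxo1 in 17 of 36. Igf1r (5.12 ± 0.419), Insr (4.80 ± 0.380), Foxo3 (4.01 ± 0.505), Arrdc4 (3.72 ± 0.473) and Irs1 (3.16 ± 0.247) followed in that order. Of these neighbours, Igf1r was above Insr in 26 libraries, Insr above Foxo3 in 33, Foxo3 above Arrdc4 in 26 and Arrdc4 above Irs1 in 30 of 36. Of the Irs, FoxO, receptor and alpha-arrestin pairs, the docking proteins thus differed most in level, with Irs2 the higher.

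Full separation of trained from naive libraries was seen in the mutant. All 6 mutant 1 h libraries lay above all 6 naive mutant libraries for Irs2, Foxo3 and Ddit4, which is 3 of 10 members beside 1.07% of 17282 genes tested. At 3 h the same held for Pnpla2, 1 of 10 members beside 0.33% of genes. In WT it held for 0 of 10 members at 1 h and at 3 h, beside 0.167% and 0.229% of genes. As the list was picked with such values known, these shares are a description.

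**Figure D1:**
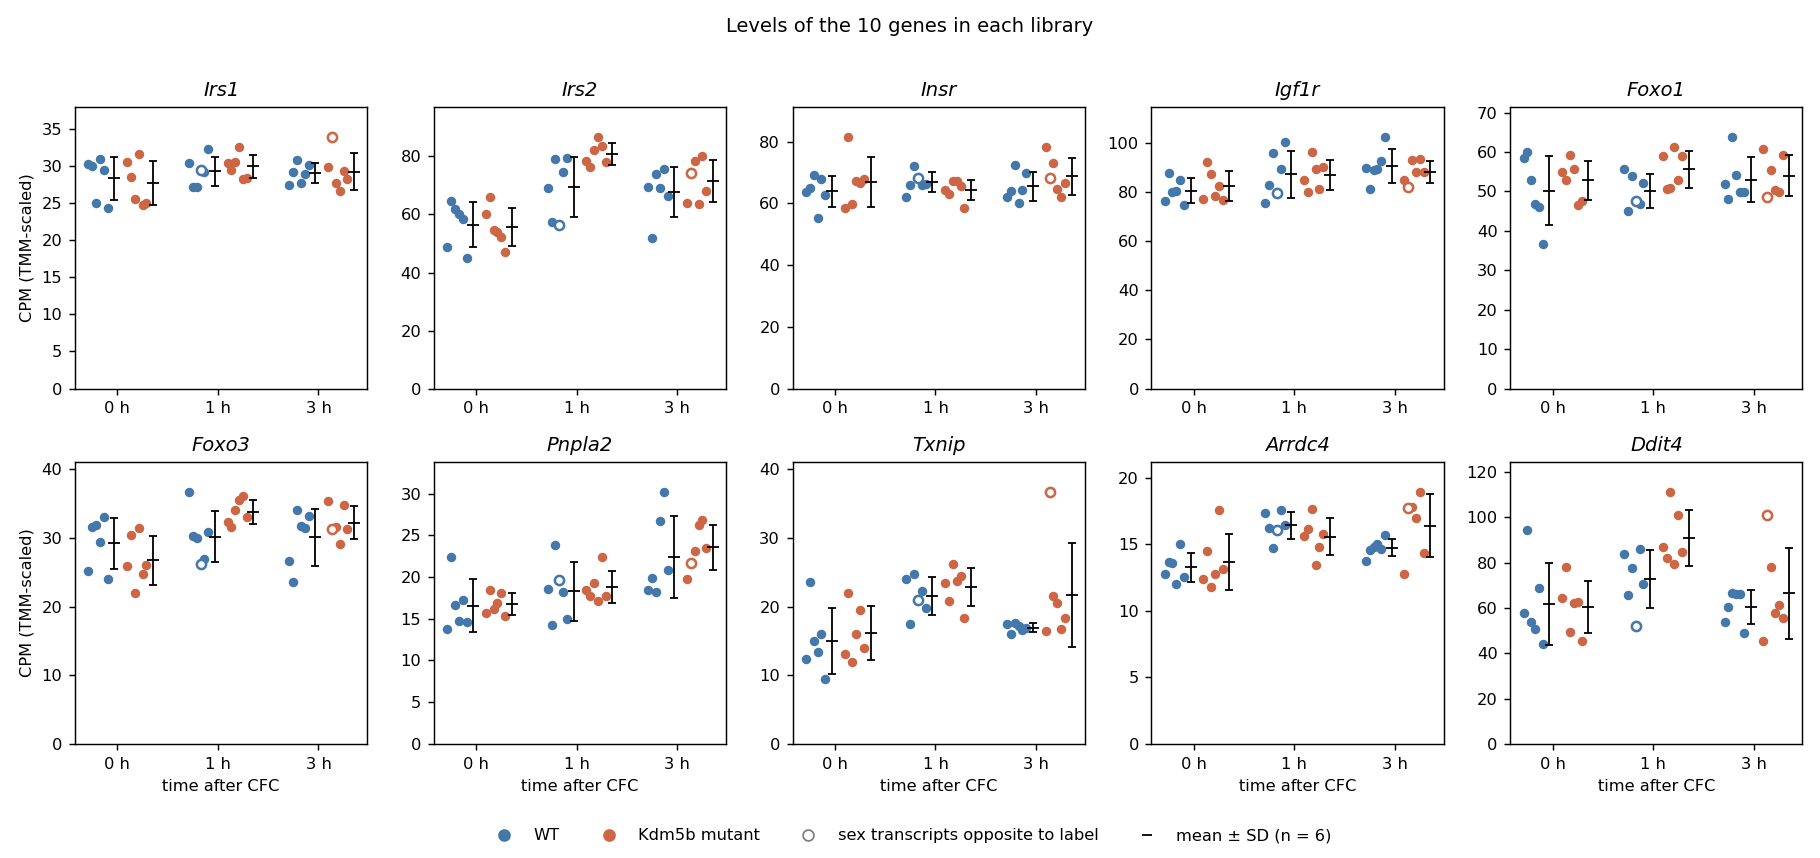
Level of each of the 10 genes in TMM-scaled CPM (vertical axis, from 0) in WT and Kdm5b mutant libraries at 0, 1 and 3 h after CFC (horizontal axis). Points are libraries, open points the 2 libraries whose sex transcripts go against the label, and bars the mean ± SD of 6 libraries. Irs2, Foxo3 and Ddit4 in the mutant at 1 h and Pnpla2 in the mutant at 3 h do not overlap the naive mutant libraries, while Insr and Irs1 stay within one range.

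The receptor genes changed little with training. Insr ranged from 55.1 to 81.5 CPM in the 12 naive libraries, from 58.4 to 72.0 CPM at 1 h and from 60.0 to 78.3 CPM at 3 h. Over both genotypes, in one model of all 36 libraries, it had a log2 fold change of 0.00 ± 0.04 (SE) at 1 h and of 0.04 ± 0.04 at 3 h. The value at 1 h averages 0.06 ± 0.05 in WT and -0.06 ± 0.07 in the mutant. Igf1r had medians of 80.1, 86.1 and 89.6 CPM at 0, 1 and 3 h in WT and of 80.3, 87.2 and 88.3 CPM in the mutant. At 3 h, 5 of 6 WT libraries lay above the highest naive WT library (87.7 CPM), but only 2 of 6 mutant libraries lay above the highest naive mutant library (92.0 CPM). The log2 fold change of Igf1r at 3 h was 0.14 ± 0.04 over both genotypes and did not pass the threshold of an adjusted p of 0.05 (adjusted p = 0.0919), although it did so without WT 0 h female 2 or without mutant 0 h female 2.

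The docking proteins behaved differently from each other. Irs1 lay between 24.4 and 33.9 CPM in all 36 libraries, with a log2 fold change over both genotypes of 0.08 ± 0.05 at 1 h (adjusted p = 0.512) and of 0.06 ± 0.05 at 3 h (adjusted p = 0.612). Irs2 ranged from 45.1 to 64.6 CPM (median 59.1) in naive WT, from 56.4 to 79.3 CPM (median 71.8) at 1 h and from 51.7 to 75.7 CPM (median 69.3) at 3 h. In the mutant, Irs2 ranged from 47.1 to 65.9 CPM (median 54.3) when naive, from 76.4 to 86.7 CPM (median 80.3) at 1 h and from 63.7 to 80.0 CPM (median 71.2) at 3 h. All 6 mutant 1 h libraries lay above all naive mutant libraries, while the WT groups overlapped, with 4 of 6 libraries at 1 h and 5 of 6 at 3 h above the naive range.

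Irs2 was the single member called by edgeR in the mutant at 1 h (log2 fold change 0.54 ± 0.06, edgeR adjusted p = 0.00467, rank 2 of 17282 genes by p), where 0.312% of all genes were called. DESeq2 called 370 genes there (2.14%), with 4 members among them (Irs2, Foxo3, Txnip and Ddit4). In WT at 1 h, 0 of 10 members and 0% of 17319 genes were called, with Irs2 at 0.29 ± 0.12 (adjusted p = 0.922). Unadjusted p-values under 0.05 were given to 928 genes and 3 members in that WT comparison, and DESeq2 called 8 genes there, Arrdc4 among them. Over both genotypes Irs2 rose by 0.42 ± 0.07 on the log2 scale at 1 h (adjusted p = 0.00170) and by 0.31 ± 0.07 at 3 h (adjusted p = 0.0125), and it kept both calls in each of the 43 alternative fits. The change in the mutant was larger than in WT by 0.24 ± 0.14 at 1 h, but the difference itself was not called (adjusted p = 1.00).

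**Figure D2:**
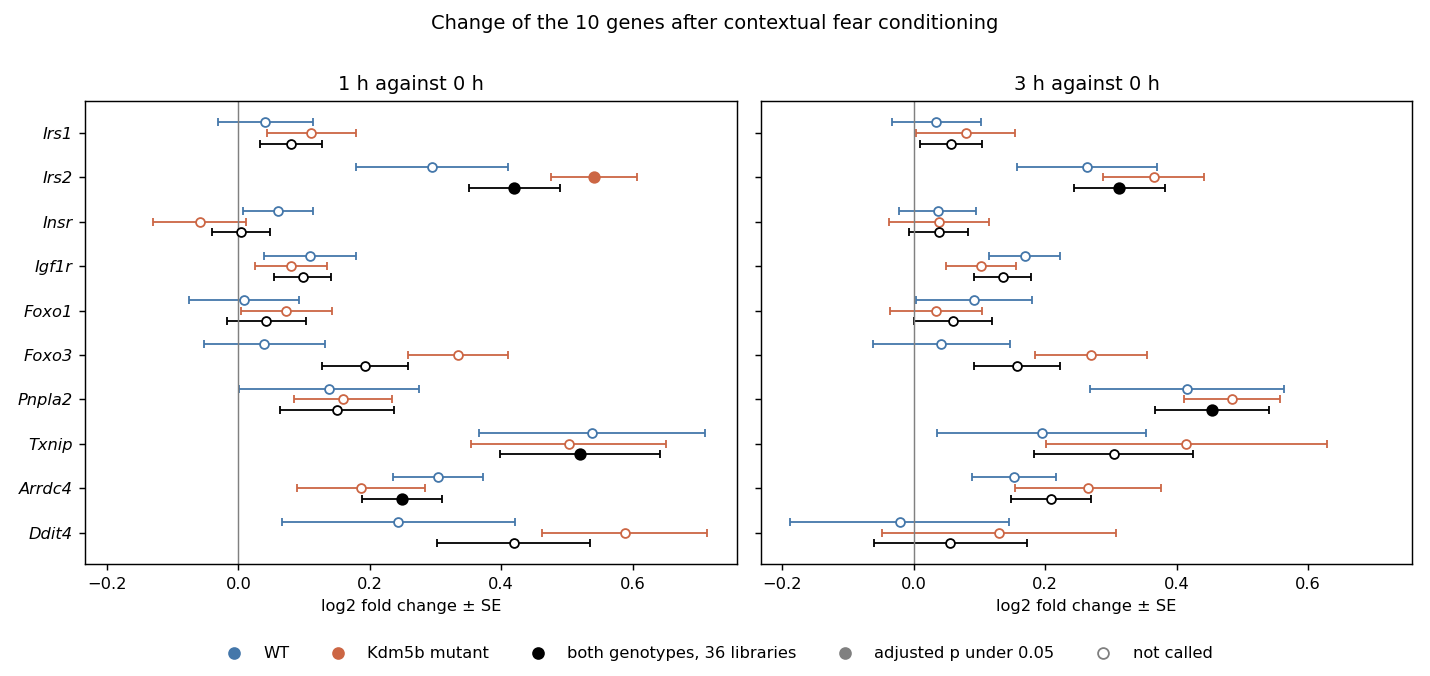
Log2 fold change ± SE (horizontal axis) of the 10 genes (vertical axis) at 1 h and 3 h against 0 h, in WT and in Kdm5b mutants (6 libraries each side) and over both genotypes (36 libraries). Filled points passed an adjusted p of 0.05 over all genes tested. At 1 h, Irs2, Txnip and Arrdc4 are filled over both genotypes, and at 3 h Irs2 and Pnpla2 are.

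Over both genotypes, 3 of the 10 members were called at 1 h (Irs2, Txnip and Arrdc4, all higher), against 1.14% of all 18186 genes. At 3 h 2 of 10 were called (Pnpla2 and Irs2, both higher), against 2.39% of all genes. The median log2 fold change of the 10 members was 0.17 at 1 h and 0.15 at 3 h, beside -0.01 and -0.01 over all genes, and all 10 estimates were positive at both times. Since the list was picked with such values known, these shares are a description. Between 1 h and 3 h, 0 of 10 members were called, against 0.214% of all genes, and 2 members had an unadjusted p under 0.05. DESeq2 called Pnpla2 in that comparison.

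The FoxO factors themselves were steady in WT. Foxo1 lay between 36.7 and 63.8 CPM in all 36 libraries, with a log2 fold change over both genotypes of 0.04 ± 0.06 at 1 h and of 0.06 ± 0.06 at 3 h. Foxo3 had WT medians of 30.5, 30.1 and 31.5 CPM at 0, 1 and 3 h. In the mutant it ranged from 22.0 to 31.4 CPM (median 25.9) when naive, from 31.6 to 36.1 CPM (median 33.6) at 1 h and from 29.2 to 35.3 CPM (median 31.4) at 3 h. The naive and 1 h mutant groups did not overlap, and the log2 fold change was 0.33 ± 0.08 with an adjusted p of 0.0885, beside 0.04 ± 0.09 in WT. Foxo3 passed the threshold in the mutant at 1 h in 2 of 12 fits that left out a library (mutant 0 h female 2 or male 1) and in DESeq2. The difference between the genotypes in the 1 h change was 0.29 ± 0.13 (adjusted p = 1.00), with 0% of all genes called for that difference.

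Pnpla2 encodes adipose triglyceride lipase, which takes the first step in breaking down stored fat and is a known FoxO target. It ranged from 13.7 to 22.4 CPM (median 15.7) in naive WT, from 14.2 to 23.9 CPM (median 18.4) at 1 h and from 18.2 to 30.2 CPM (median 20.3) at 3 h. In the mutant it ranged from 15.4 to 18.5 CPM (median 16.5), from 17.2 to 22.4 CPM (median 18.1) and from 19.8 to 26.9 CPM (median 23.3) at the same times. The level was thus highest at 3 h in both genotypes, and all 6 mutant 3 h libraries lay above all naive mutant libraries. In WT, libraries labelled male lay at 14.6 to 17.3 CPM when naive and at 20.8 to 30.2 CPM at 3 h. Those labelled female lay at 13.7 to 22.4 and at 18.2 to 19.8 CPM. In the mutant, the male ranges were 15.4 to 18.1 and 23.5 to 26.9 CPM, and the female ranges 15.7 to 18.5 and 19.8 to 23.1 CPM. Whether the change with time differed between the sexes was not tested. Pnpla2 rose by 0.45 ± 0.09 on the log2 scale at 3 h over both genotypes (adjusted p = 0.00512) and kept this call in all 43 alternative fits, including the fit without the 2 libraries of discordant sex (0.46, adjusted p = 0.00518). At 1 h its log2 fold change was 0.15 ± 0.09 (adjusted p = 0.497).

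Within one genotype, Pnpla2 had a log2 fold change at 3 h of 0.42 ± 0.15 in WT and 0.48 ± 0.07 in the mutant, where it ranked 1 of 17285 genes by p. Neither comparison called any of the 10 members or any gene (0% of 17438 and 0% of 17285 genes). Unadjusted p-values under 0.05 were given to 1436 genes and 4 members in WT and to 1481 genes and 4 members in the mutant. DESeq2 called 74 genes and 0 members in WT, and 145 genes with Pnpla2 and Irs2 among them in the mutant. Without mutant 0 h female 2, edgeR also called Pnpla2 in the mutant at 3 h (adjusted p = 0.0360).

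Txnip and Arrdc4 are paralogous alpha-arrestin genes. Txnip ranged from 9.39 to 23.5 CPM (median 14.2) in naive WT, from 17.5 to 24.8 CPM (median 21.6) at 1 h and from 16.0 to 17.6 CPM (median 17.0) at 3 h. In the mutant it ranged from 11.9 to 22.0 CPM (median 15.0) when naive, from 18.4 to 26.2 CPM (median 23.6) at 1 h and from 16.5 to 36.6 CPM (median 19.4) at 3 h. The naive and 1 h groups overlapped in both genotypes, with WT 0 h female 2 at 23.5 CPM, mutant 0 h female 2 at 22.0 CPM and mutant 0 h male 2 at 19.5 CPM inside the 1 h ranges. The highest value of all, 36.6 CPM, came from mutant 3 h female 2, and the other 5 libraries of that group lay at 16.5 to 21.5 CPM.

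Over both genotypes Txnip rose by 0.52 ± 0.12 on the log2 scale at 1 h (adjusted p = 0.0237), with 0.54 ± 0.17 in WT and 0.50 ± 0.15 in the mutant. The call was lost in 6 of 36 fits that left out a single library (WT 0 h female 1 or male 3, WT 1 h female 3, and mutant 0 h female 1, female 3 or male 3), with an adjusted p of at most 0.0585. At 3 h the log2 fold change was 0.30 ± 0.12 (adjusted p = 0.194), and 0.20 (adjusted p = 0.344) without the 2 libraries of discordant sex. In the mutant alone it was 0.41 ± 0.21 with all libraries and 0.21 without mutant 3 h female 2.

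Arrdc4 followed the 1 h change of Txnip at a smaller size and with less spread. It ranged from 11.98 to 15.0 CPM (median 13.2) in naive WT, from 14.8 to 17.5 CPM (median 16.4) at 1 h and from 13.7 to 15.7 CPM (median 14.7) at 3 h. In the mutant it ranged from 11.8 to 17.6 CPM (median 12.9), from 13.5 to 17.6 CPM (median 15.7) and from 12.7 to 18.9 CPM (median 17.3). In WT, 5 of 6 libraries at 1 h lay above the naive range. Among naive mutants, mutant 0 h male 2 stood at 17.6 CPM, within the 1 h range, and the other 5 lay at 11.8 to 14.5 CPM.

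Over both genotypes Arrdc4 rose by 0.25 ± 0.06 on the log2 scale at 1 h (adjusted p = 0.0315). In WT at 1 h it ranked 7 of 17319 genes by p (0.30 ± 0.07, adjusted p = 0.922). The call over both genotypes was lost in 14 of 36 fits that left out a single library, with an adjusted p of at most 0.0799: without WT 0 h female 1, male 1 or male 3, WT 1 h female 1, male 2 or male 3, mutant 0 h female 1, female 3, male 1 or male 3, or mutant 1 h female 1, female 2, female 3 or male 3. At 3 h the log2 fold change was 0.21 ± 0.06 (adjusted p = 0.0587), and the gene passed the threshold there in DESeq2, with the replicate block and in 6 of 36 fits that left out a library.

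Ddit4 ranged from 44.3 to 94.3 CPM (median 55.8) in naive WT, from 52.0 to 86.1 CPM (median 74.1) at 1 h and from 48.7 to 66.5 CPM (median 63.2) at 3 h. In the mutant it ranged from 45.5 to 78.0 CPM (median 62.4), from 79.2 to 111 CPM (median 85.8) and from 45.3 to 101 CPM (median 59.3). All 6 mutant 1 h libraries lay above all naive mutant libraries, whereas the WT groups overlapped. The lowest WT 1 h value (52.0 CPM) was WT 1 h male 1 and the highest mutant 3 h value (101 CPM) was mutant 3 h female 2, the 2 libraries of discordant sex.

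In the mutant at 1 h, Ddit4 had a log2 fold change of 0.59 ± 0.13 (adjusted p = 0.0885), beside 0.24 ± 0.18 in WT, and the difference between them was 0.34 ± 0.23 (adjusted p = 1.00). The WT value ranged from 0.15 (without WT 1 h male 2) to 0.39 (without WT 0 h female 2) when a library was left out. Ddit4 was called in the mutant at 1 h without mutant 0 h female 2 (adjusted p = 0.0404) and with DESeq2. Over both genotypes Ddit4 stood 0.42 ± 0.12 higher at 1 h on the log2 scale and did not pass the threshold (adjusted p = 0.0665). It passed in 6 of 43 alternative fits, namely DESeq2, the replicate block, the fit without both libraries of discordant sex (0.45, adjusted p = 0.0187) and the fits without WT 1 h male 1, mutant 3 h female 2 or WT 0 h female 2. From 1 h to 3 h it had a log2 fold change of -0.36 ± 0.12 (adjusted p = 0.190), and without those 2 libraries it fell by 0.47 (adjusted p = 0.0210). At 3 h against 0 h the log2 fold change was 0.06 ± 0.12 with all libraries and -0.02 without the 2. In the mutant alone it was 0.13 ± 0.18 and -0.00.

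The Kdm5b genotype made no called difference to any of the 10 genes. At 0 h, 0 of 10 members and 0% of 17336 genes were called by edgeR, 0 members and 1066 genes had an unadjusted p under 0.05, and DESeq2 called 14 genes and 0 members. At 1 h, 0 of 10 members and 0% of 17261 genes were called, with 4 members and 1487 genes at an unadjusted p under 0.05 and 111 genes but 0 members called by DESeq2. These 4 members were Ddit4 (log2 fold change of mutant over WT 0.32 ± 0.12), Irs2 (0.22 ± 0.08), Foxo3 (0.17 ± 0.07) and Foxo1 (0.15 ± 0.06), with adjusted p from 0.470 to 0.536. Without WT 1 h male 1, the values were 0.24 for Ddit4, 0.16 for Irs2, 0.13 for Foxo3 and 0.13 for Foxo1.

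At 3 h, 0 of 10 members were called between the genotypes, against 0.0115% of all genes, and the largest value was 0.34 ± 0.16 for Txnip (adjusted p = 0.790). Without mutant 3 h female 2, that of Txnip was 0.15 (adjusted p = 0.666) and that of Ddit4 was -0.01 in place of 0.13. Averaged over the 3 times, 0 of 10 members were called against 1.18% of all genes, 0 had an unadjusted p under 0.05, and the values ran from -0.00 (Igf1r) to 0.18 ± 0.10 (Txnip). Without both libraries of discordant sex, Txnip was at 0.11 (adjusted p = 0.573) and Ddit4 at 0.07 in place of 0.14. DESeq2 called 0 members in these 2 comparisons also. The summed level of 8 choroid plexus markers had a median of 2117, 1053 and 2223 CPM in WT and of 195, 128 and 1494 CPM in the mutant at 0, 1 and 3 h, within a range over the 36 libraries of 43.7 to 8062 CPM. The correlation of the 10 genes with the log of this sum over the 36 libraries lay between -0.17 (Insr) and 0.29 (Igf1r), and its part in the genotype values was not tested. Of the other marker lists, the summed endothelial markers (148 to 201 CPM) had a negative r with all 10 genes, from -0.18 (Arrdc4) to -0.46 (Foxo1), with -0.43 for Foxo3 and Irs2 and -0.40 for Pnpla2. The sum does not stand for each of these markers. At 3 h over both genotypes, 2 of the 6 had positive estimates and 1 was called higher, beside 2.39% of all genes called. Irs1 had an r of -0.44 with the astrocyte markers and Txnip of 0.42 with the thalamus markers. All other values lay between -0.37 and 0.38, and the part of these cells in the results was not tested.

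The time response differed between the genotypes for 0 of 10 members and 0% of genes at 1 h, and for 0 of 10 members and 0% of genes at 3 h, by the interaction terms of the 36-library model. An unadjusted p under 0.05 was given to 679 genes and 1 member (Foxo3) at 1 h and to 320 genes and 0 members at 3 h, and DESeq2 called 0 genes in both. At 3 h, the difference for Txnip was 0.22 ± 0.24 with all libraries and 0.04 without the 2 of discordant sex, and for Ddit4 0.15 ± 0.23 and 0.02. Between females and males as labelled, 0 of 10 members were called against 0.0825% of all genes. Foxo1 was the only member with an unadjusted p under 0.05 (log2 fold change of female over male 0.11 ± 0.05, adjusted p = 0.948). Without the 2 libraries, Txnip was at 0.09 in place of 0.15 and Ddit4 at 0.11 in place of 0.18.

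The wider pathway was read from lists of genes of known function, which were also chosen with earlier results of these counts known. Over all genes, 1.14% were called at 1 h, 2.39% at 3 h and 1.18% between the genotypes, so that 1 or 2 called genes in a list describe those genes and not the list. Of 30 other genes of insulin receptor signalling, 2 were called at 1 h over both genotypes, both higher: Ptpn1, which encodes the phosphatase PTP1B that switches the insulin receptor off (0.22 ± 0.04, adjusted p = 0.00423), and Sh2b1, an adaptor that enhances receptor signalling (0.10 ± 0.02, adjusted p = 0.0220). At 3 h, Sh2b1 was the only one called (0.12 ± 0.02, adjusted p = 0.00860). In the mutant alone at 1 h, Ptpn1 was called as well (0.28 ± 0.05, adjusted p = 0.0252), a call kept in 11 of 19 alternative fits. The remaining genes of this list, including those for the PI3K subunits and the 3 Akt kinases, were not called at either time, and the median log2 fold change of the list was 0.02 at 1 h and -0.01 at 3 h.

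Of 20 tested FoxO family members and targets, 2 were called at 1 h, beside 1.14% of all genes: Bcl6, a transcriptional repressor (0.34 ± 0.06, adjusted p = 0.00602), and Pdk4, the kinase that shuts down pyruvate dehydrogenase (0.61 ± 0.12, adjusted p = 0.00610). Both were also called in the mutant alone at 1 h (0.45 ± 0.07 and 0.63 ± 0.11, adjusted p = 0.0149 and 0.0204), Bcl6 in 18 and Pdk4 in 11 of 19 alternative fits. At 3 h Bcl6 was higher (0.24 ± 0.06, adjusted p = 0.0390, kept in 27 of 43 alternative fits) and Bcl2l11, which encodes the pro-apoptotic protein BIM, was lower (log2 fold change -0.28 ± 0.07, adjusted p = 0.0183). The median of the list was 0.02 at 1 h and -0.04 at 3 h, and 12 of the 20 estimates were positive at 1 h and 5 at 3 h. Between the genotypes over all times, Cdkn1b, a cell cycle inhibitor, was the only one of this list called (0.12 ± 0.03 higher in the mutant, adjusted p = 0.0156).

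Among 10 tested genes of the MondoA and alpha-arrestin list, Mlxip, the gene for MondoA, was called at 1 h (0.17 ± 0.04, adjusted p = 0.0367) and no gene at 3 h. Among 25 genes of mTORC1 and AMPK, Prkab2, an AMPK subunit gene, was called at 1 h (0.21 ± 0.05, adjusted p = 0.0237), and Prkag2 (0.14 ± 0.04, adjusted p = 0.0496) and the autophagy kinase gene Ulk1 (0.09 ± 0.03, adjusted p = 0.0470) at 3 h. Cab39 of the same list was 0.12 ± 0.02 higher in the mutant over all times (adjusted p = 0.0124). Among 16 tested genes of lipolysis and fatty acid use, none was called at 1 h and Lipe, the hormone-sensitive lipase that acts after the product of Pnpla2, was called at 3 h (0.20 ± 0.05, adjusted p = 0.0384), beside 2.39% of all genes. The calls of Mlxip, Pfkfb4, Ulk1 and Prkag2 were kept in 22, 16, 21 and 11 of 43 alternative fits, and that of Lipe in 26.

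Among 24 genes of glucose uptake and use, Pfkfb4 was called at 1 h (0.18 ± 0.05, adjusted p = 0.0424). At 3 h Slc2a1, the gene for the glucose transporter GLUT1, was higher (0.44 ± 0.11, adjusted p = 0.0338, kept in 31 of 43 alternative fits) and Slc16a1, the gene for the lactate transporter MCT1, was lower (-0.34 ± 0.08, adjusted p = 0.0149). From 1 h to 3 h, Slc16a1 (-0.37 ± 0.08, adjusted p = 0.0338) and Ppp1r3c, which targets protein phosphatase to glycogen (-0.31 ± 0.06, adjusted p = 0.0214), fell, with the calls kept in 27 and 37 of 43 alternative fits. Between the genotypes, Hk1, the main hexokinase gene of brain, was lower in the mutant (log2 fold change -0.11 ± 0.03, adjusted p = 0.0302). None of 10 tested genes for insulin, IGF ligands and binding proteins was called with time. The smallest p of this list was that of Igf2 between the genotypes (log2 fold change -1.04 ± 0.29, adjusted p = 0.0691), and the level of Igf2 had a correlation of 0.91 with the summed choroid plexus markers over the 36 libraries.

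The 13 listed genes inducible by glucocorticoids, the hormones released during stress, all had positive estimates at both times, with a median of 0.30 at 1 h and 0.45 at 3 h over both genotypes. At 1 h, 2 of them were called, the clock gene Per1 (0.54 ± 0.10, adjusted p = 0.00634) and Errfi1, an inhibitor of the EGF receptor (0.46 ± 0.09, adjusted p = 0.00634). At 3 h, 5 were called: Fkbp5 (0.59 ± 0.11), Klf9 (0.29 ± 0.06), Sult1a1 (0.68 ± 0.18), Mt2 (0.45 ± 0.12) and Zbtb16 (0.46 ± 0.13), with adjusted p from 0.00368 to 0.0480. The calls of Fkbp5 and Klf9 were kept in all 43 alternative fits, those of Sult1a1 and Mt2 in 27 and 26, and that of Zbtb16 was not examined in them. Zbtb16 was the fifth by p and is named although the naming rule stopped at 4. Between the genotypes, 0 of the 13 were called over all times or at 1 h. At 1 h, where 2 of the 13 had an unadjusted p under 0.05 (Klf9 and Errfi1), 12 of 13 estimates were higher in the mutant with a median of 0.15, beside -0.00 over all genes. This includes WT 1 h male 1, whose group is in doubt. It had the lowest WT 1 h value of Sgk1 (108 CPM, others 118 to 221) and Per1 (91.4 CPM, others 94.8 to 130). Its Fkbp5 value was the highest of the group (87.8 CPM) and its Tsc22d3 value lay within the group (68.8 CPM). The median of the list without this library was not taken.

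Levels of some members also varied together from library to library, which was described by Pearson's r of log2 CPM over the 36 libraries. These libraries share depth, dissection and training group, so r was also taken of deviations from the group means. The strongest pair of members was Txnip and Ddit4 (r = 0.79, and 0.78 for the deviations), followed by Irs2 and Foxo3 (0.71 and 0.56) and Irs2 and Txnip (0.69 and 0.47). The paralogs Txnip and Arrdc4 had an r of 0.65, and 0.44 for the deviations. Irs1 and Irs2 had an r of 0.45, and Insr and Igf1r of 0.28. The lowest value of all 45 pairs was that of Foxo1 and Arrdc4 (-0.18, and -0.37 for the deviations). Without the 2 libraries of discordant sex, r was 0.81 for Txnip and Ddit4, 0.70 for Irs2 and Foxo3, 0.75 for Irs2 and Txnip and 0.63 for Txnip and Arrdc4.

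**Figure D3:**
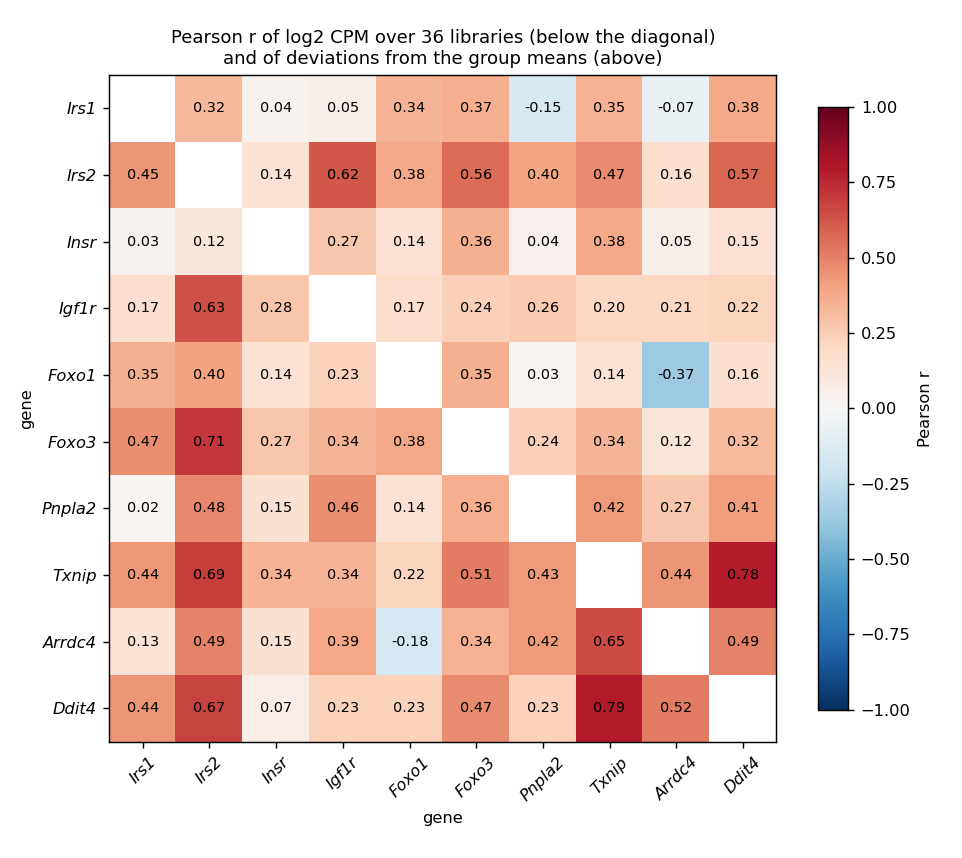
Pearson's r between the 10 genes (both axes), of log2 CPM over 36 libraries below the diagonal and of deviations from the group means above it, with the colour scale from -1 to 1. Txnip and Ddit4 have the highest value on both sides (0.79 and 0.78), and Insr is weakly related to the other genes.

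Among 14312 genes with a mean of at least 1 CPM, the gene most like Pnpla2 was Slc2a1 (r = 0.91), followed by Atp10a (0.88) and Rin2 (0.88). For Txnip these were Sgk1 (0.85), the gene for a kinase inducible by glucocorticoids, Maff (0.85) and Plekhf1 (0.84). For Ddit4 they were Arl4d (0.89), Tob2 (0.89) and Errfi1 (0.88). For Irs2 the most alike was Fosb (0.83), an activity-induced transcription factor gene, then Arhgef3 (0.80) and Kdm7a (0.80). Of these genes, Slc2a1 is on the glucose list and Sgk1 and Errfi1 are on the list of glucocorticoid-inducible genes. No member was among the 3 most alike genes of another member. Without the 2 libraries of discordant sex, r was 0.91 for Pnpla2 and Slc2a1, 0.88 for Txnip and Sgk1, 0.88 for Ddit4 and Arl4d and 0.85 for Irs2 and Fosb.

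For the other 6 members the highest correlations were between 0.72 and 0.80. Insr was most like Tgfbr3l (0.80), Stxbp2 (0.78) and Arhgef18 (0.75), with 0.80, 0.76 and 0.78 for the deviations from the group means. Where the genes named here lie relative to the members was not examined. Shared inheritance of neighbouring genes in these F2 mice was not tested. Foxo1 was most like Scnn1a (0.77), Lrrtm4 (0.74) and Stxbp6 (0.73), and Foxo3 most like Rab40c (0.73), Mtmr10 (0.71) and Eri1 (0.71). Arrdc4 was most like Myh9 (0.75), Rasl11b (0.73) and 2900026A02Rik (0.73). Igf1r was most like Myrip (0.74), Nphp4 (0.72) and Actn1 (0.72), and Irs1 most like Zbtb43 (0.72), Cnot6 (0.71) and Klhl24 (0.70).

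**Figure D4:**
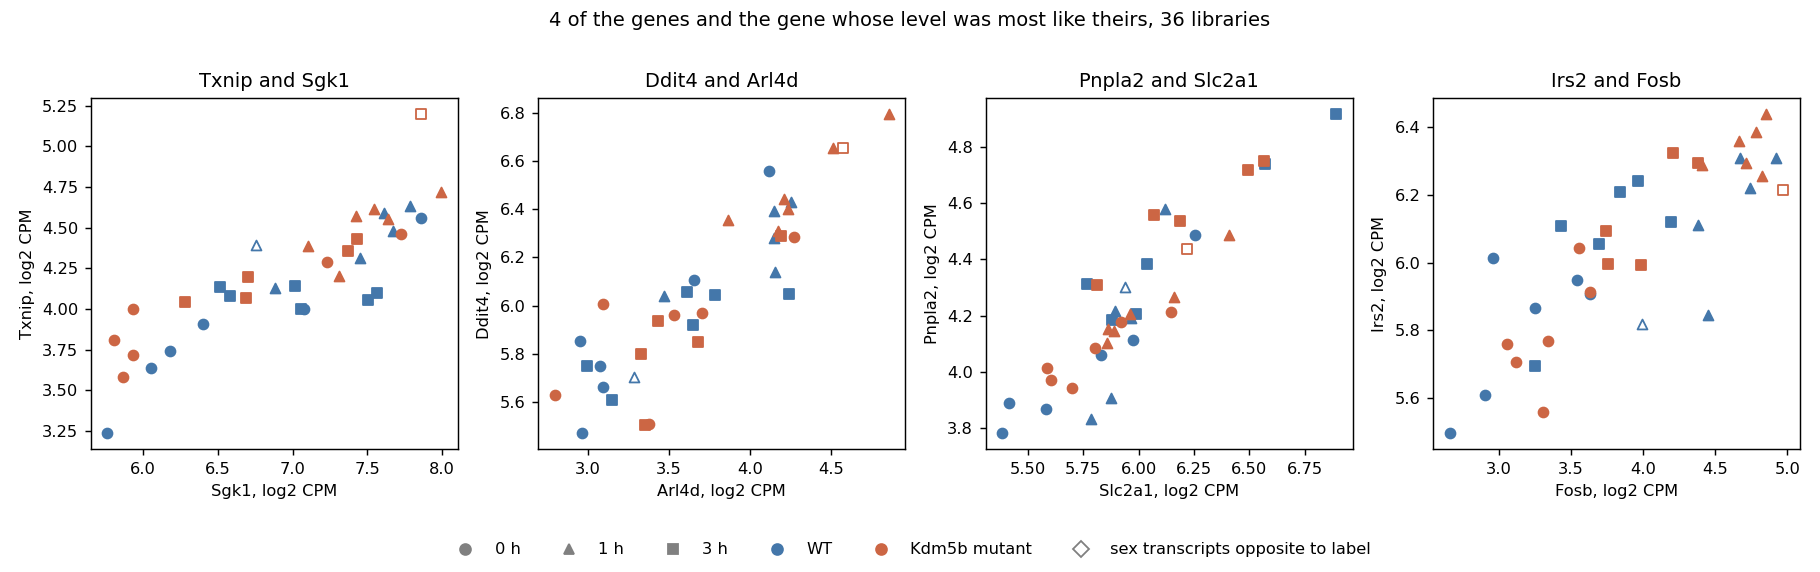
Log2 CPM of Txnip, Ddit4, Pnpla2 and Irs2 (vertical axes) against the gene most like each (Sgk1, Arl4d, Slc2a1 and Fosb, horizontal axes) in 36 libraries. Colour gives the genotype, shape the time, and open points the 2 libraries of discordant sex. The naive libraries with high Txnip also have high Sgk1, and mutant 3 h female 2 is the highest for Txnip.

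Among naive mice, 1 library of each genotype held the highest value of several members. WT 0 h female 2 had the highest naive WT values of Irs2, Igf1r, Foxo1, Pnpla2 (22.4 CPM), Txnip (23.5 CPM) and Ddit4 (94.3 CPM). It had 232 CPM of Sgk1, where the other naive WT libraries had 54.2 to 135 CPM. Mutant 0 h female 2 had the highest naive mutant values of Irs2 (65.9 CPM), Insr (81.5 CPM), Igf1r, Pnpla2, Txnip (22.0 CPM) and Ddit4 (78.0 CPM), with 212 CPM of Sgk1 against 55.8 to 150 CPM in the others. Both are labelled female and number 2 in the files, and neither was left out of the results above except where a fit without it is named. Next for Sgk1 in each genotype came the naive library labelled male and number 2, at 135 CPM in WT and 150 CPM in the mutant. It also held the highest naive Arrdc4 value of its genotype (15.0 CPM in WT and 17.6 CPM in the mutant).

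Some glucocorticoid-inducible genes varied with Txnip, Ddit4 and Pnpla2 alike and others did not. With Tsc22d3, r was 0.72 for Txnip, 0.63 for Ddit4 and 0.78 for Pnpla2, and with Klf15 it was 0.72, 0.65 and 0.79. With Klf9 it was 0.61, 0.49 and 0.75. Over the same 36 libraries, Txnip had an r of 0.85 with Sgk1, 0.81 with Per1 and 0.31 with Fkbp5. Ddit4 had an r of 0.83 with Sgk1, 0.85 with Per1 and 0.15 with Fkbp5. For Pnpla2 these were 0.51, 0.33 and 0.88. Per1 was called at 1 h and Fkbp5, a chaperone of the glucocorticoid receptor, at 3 h. The median r over the 13 listed genes was 0.78 for Pnpla2, 0.62 for Irs2, 0.61 for Txnip, 0.55 for Arrdc4 and 0.49 for Ddit4, and 0.14 to 0.19 for Foxo1, Irs1 and Insr. The part of these genes in the results for the members was not tested.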

How the data were processed

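The deposited files hold raw gene-level counts by Entrez gene for 36 dorsal hippocampus libraries. The authors made these counts from polyA-enriched paired reads with STAR 2.7.8a on mm10 and featureCounts 2.0.1. Annotation and strand setting are not given in the sources used here. The other 8 samples (whole hippocampus) were not analysed here. Rows of genes without a symbol (1904, 1.28% of counts) stayed in the tests. Members and gene lists were chosen with earlier results of these data known, and the named genes are all members, at most 4 called genes per list and comparison, and the 3 genes most like each member.

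Groups and sex follow the labels. Counts were tested with edgeR 4.0.16 (robust quasi-likelihood test, filterByExpr with a minimum count of 10, TMM, sex as covariate) under R 4.3.3, with Benjamini-Hochberg adjustment over all genes. A gene was called at an adjusted p under 0.05. Comparisons within a genotype or time used 12 libraries. Those over both genotypes, the interactions and the sex difference used one model of 36. SE is the log2 fold change divided by the root of F. CPM were TMM-scaled, and correlations used log2 CPM with a prior count of 2. Exon lengths came from GENCODE vM21. The test was checked on simulated data. Nothing in the labels says that libraries of a group came from separate litters, so p-values measure the spread between these samples. Alternatives were DESeq2 1.42.0, RLE scaling, 2 other filters, no sex covariate, a replicate block, 1 common model, leaving out each library, and leaving out the 2 libraries of discordant sex. Figures were drawn with Matplotlib.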

Additional observations from a re-analysis of the deposited data

Results flagged for a closer look

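Txnip in mutant 3 h female 2 was at 36.6 CPM, where the other 5 libraries of the group lay at 16.5 to 21.5 CPM. The gap to the next library was larger than Dixon's limit for 6 samples. It was the only one of 60 combinations of gene and group past that limit, and chance passes about 1 in 20. This is one of the 2 libraries whose sex transcripts go against the label. Without both, Txnip had a log2 fold change of 0.21 in the mutant at 3 h in place of 0.41.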

How the results depend on the processing

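In each of the 4360 refits over 140 combinations of gene and comparison, the fold changes of the 10 genes moved by less than the pooled SD between replicates, which is a wide margin for the smaller ones, and no called value changed sign. Txnip between the genotypes at 3 h, for example, went from 0.34 to 0.15 without mutant 3 h female 2. The number of members called moved by more than 1.5 times in 5 of 100 refits other than those leaving out 1 library. DESeq2 called 1 in WT at 1 h in place of 0, 4 in the mutant at 1 h in place of 1 (Irs2, Foxo3, Txnip and Ddit4), 2 in the mutant at 3 h in place of 0 and 1 between 1 h and 3 h in place of 0. Without the 2 libraries of discordant sex, 1 (Ddit4) was called between 1 h and 3 h. Over both genotypes, the smaller moves were from 3 to 4 members at 1 h with DESeq2, with the replicate block and without the 2 discordant libraries (Ddit4 added), and from 2 to 3 at 3 h with DESeq2 and with the block (Arrdc4 added). Leaving out 1 library at a time gave 1 to 3 members in the mutant at 1 h, 0 to 1 in the mutant at 3 h (1 without mutant 0 h female 2), 1 to 4 at 1 h and 2 to 4 at 3 h over both genotypes, and 0 in the other 10 comparisons. The 4 at 3 h, without WT 0 h female 2 or mutant 0 h female 2, added Igf1r and Arrdc4.

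Counts over all genes depended more on the tool and libraries. The ranges over all alternatives were 0 to 14, 0 to 111 and 0 to 47 for the genotypes at 0, 1 and 3 h (0, 0 and 2 in the main fits, the highest with DESeq2), 0 to 8 and 0 to 74 for WT at 1 h and 3 h (0 and 0), and 26 to 370 and 0 to 145 for the mutant (54 and 0). Over both genotypes they were 114 to 407 at 1 h (208, highest without the 2 discordant libraries), 219 to 807 at 3 h (434), 7 to 310 between 1 h and 3 h (39, highest without the 2 discordant libraries), 142 to 354 for the genotype with 1 library left out (214, and 2.96% of genes with DESeq2 in place of 1.18%) and 9 to 17 for sex (15). The cause was not tested. Of the 1194 refits of listed genes, 957 kept the call, and Bcl6, Pdk4, Per1, Errfi1 and Ptpn1 at 1 h and Bcl2l11, Fkbp5, Klf9, Slc16a1 and Sh2b1 at 3 h kept it in all 43.

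Libraries of the same sex and number in different groups had a median correlation of 0.361 of their deviations from the group means (-0.131 for the 450 other pairs). Of such pairs, 74 of 90 were over 0.1 (171 of the others), and 16 of 36 libraries were most like their own number. Same-numbered libraries thus deviated more alike than other pairs. The labels do not say what the number stands for, so the main fits left it out, and its source was not tested. With sex and number as a replicate block, 1 member was called in the mutant at 1 h, 4 at 1 h and 3 at 3 h over both genotypes, and 37 genes in the mutant at 1 h. Depth was not limiting for the members, whose lowest count was 609.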
